A study of Arabidopsis thaliana with 48 samples.

Results

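The high light comparison set seedlings of a bHLH35 mutant against wild-type Arabidopsis thaliana seedlings (Col0), both exposed to high light (HL, 700 µE) for 1.5 h. It rests on 6 of the 48 libraries of the series, namely the 3 of the group bHLH35_HL and the 3 of the group Col0_HL. Every seedling was 7 days old and had grown at 21 °C and 150 µE on medium without salt. The mutant is in the gene bHLH35, and its allele and the number of lines are not given in the labels. The other treatments were an untreated Control, salt in the medium (S, 50 mM), heat (HS, 33 °C) and combinations of these with HL, each in both genotypes with 3 libraries. Genotype coincides with the deposited table, since each genotype has its own, so a difference between genotypes also compares the tables and these cannot be told apart.

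Basic helix-loop-helix (bHLH) proteins are transcription factors that bind DNA as dimers, typically at the short palindrome called the E-box. Strong light delivers more energy to the chloroplast than carbon fixation can use, and seedlings are known to answer with photoprotective proteins, flavonoids, antioxidant enzymes and heat shock proteins. Chloroplasts keep a small genome of their own (the plastid genome), whose transcripts are made in the organelle, while most chloroplast proteins come from nuclear genes.

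Levels are FPKM (fragments per kilobase of transcript, scaled to the mapped fragments of the library), and differences are mutant minus Col0 on log2(FPKM + 1), a scale that understates changes of low genes. A gene was called at a Benjamini-Hochberg adjusted p under 0.05 in a limma fit over all 48 libraries. The labels do not say that replicates came from separate cultures, so p-values measure only the spread between these libraries. The 6 libraries held an estimated 20.9 to 28.6 M fragments (M, mega), and 3 fragments equalled 0.105 to 0.144 FPKM at an effective length of 1 kb. They did not split cleanly by genotype: Pearson's r between libraries across genes was 0.951 to 0.978 within the groups and 0.943 to 0.976 between them. The summed level of 30 nuclear photosynthesis genes was 91596, 95736 and 93400 FPKM in Col0_HL and 117650, 102063 and 95841 FPKM in bHLH35_HL, with the library of mutant replicate 1 the highest. The same mutant library had the lowest summed level of 7 root markers, 35.2 FPKM, against 99.6 and 80.9 FPKM in the other mutant libraries and 135.9, 80.2 and 154.4 FPKM in Col0_HL.

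In high light 89 of 21359 genes tested were called, 0.417% of them. Of these, 41 were nuclear (0.194% of 21185), and 38 of those were lower in the mutant (0.179%) while 3 were higher (0.0142%). Over all genomes 51 genes were called higher (0.239%) and 38 lower (0.178%). The other 48 calls were plastid-encoded genes (60% of the 80 tested), all higher in the mutant. Of 133 plastid identifiers listed, 43, 48 and 43 reached 1 FPKM in the Col0_HL libraries and 69, 73 and 70 in those of bHLH35_HL. The filter asked for 1 FPKM in any 3 of the 48 libraries. A plastid gene could thus enter the 80 through the 3 mutant HL libraries alone, so the 60% is not an unbiased share. None of 94 mitochondrial genes tested was called by limma, and 2 had an unadjusted p under 0.05. The groups did not overlap for 86 of the 89 called genes, against 10.9% of all genes tested. The median difference over all genes was -0.066, and 64.1% of genes were lower in the mutant.

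**Figure D1:**
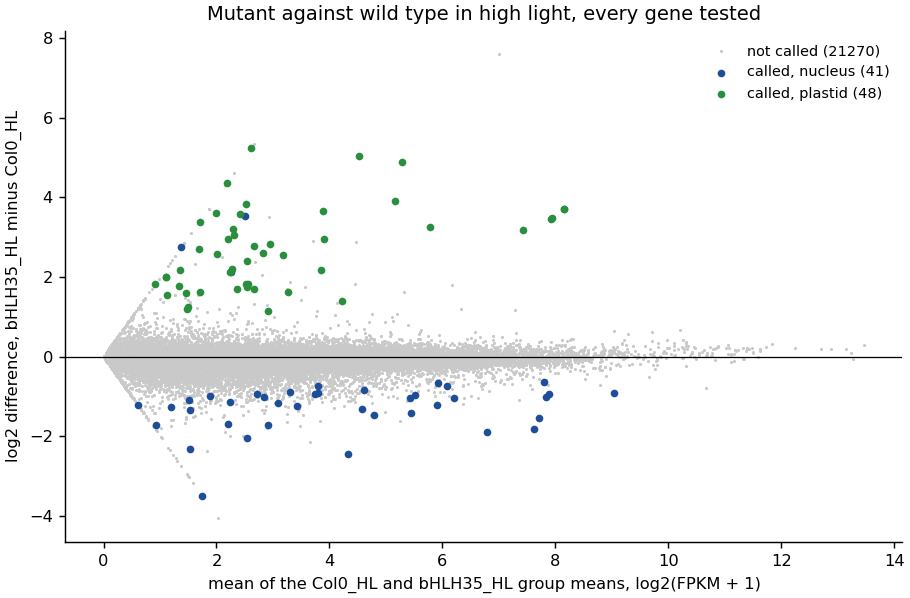
Each point is 1 gene tested, with the mean level of the 2 groups in log2(FPKM + 1) on the horizontal axis and the log2 difference of bHLH35_HL minus Col0_HL on the vertical axis. The 48 called plastid genes lie above 0, and 38 of the 41 called nuclear genes lie below it.

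The mutated gene itself was lower in every mutant library. bHLH35 (AT5G57150, TAIR10.1 chr5:23152174-23155066) stood at 42.3, 44.9 and 50.7 FPKM in Col0_HL and at 7.94, 5.84 and 9.65 FPKM in bHLH35_HL. The mutant mean was 16.99% of that of Col0, a log2 difference of -2.43 (SE 0.18, adjusted p 1.56e-11). The 3′ end of this gene overlaps ATLIG4 (AT5G57160), a DNA ligase gene on the other strand, whose difference was -0.20 and was not called. Its closest relative bHLH27 (AT4G29930) had a difference of -0.27 (adjusted p 0.87) with overlapping libraries. Of the 20 genes beside AT5G57150 on the chromosome, 19 were tested and limma called 0, with 3 having an unadjusted p under 0.05.

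Apart from bHLH35, 4 nuclear genes called in HL were called in the same direction in at least 4 of the other 7 treatments. Their sequences just upstream of the annotated gene start (RefSeq, TAIR10.1) are shown because these nuclear genes were called most often in the other treatments. All treatments share 1 variance estimate per gene, so these calls are not independent. Each line gives the 250 bases before the gene start, 5′ to 3′ on the gene's strand, and capitals mark every match to the E-box CANNTG, whose letters read the same on both strands. The positions are chr5:8234151-8234400 (minus strand) for AT5G24240, chr5:3618914-3619163 (minus) for AT5G11330, chr2:18070710-18070959 (plus) for AT2G43535 and chr1:28515917-28516166 (minus) for AT1G75945.
AT5G24240: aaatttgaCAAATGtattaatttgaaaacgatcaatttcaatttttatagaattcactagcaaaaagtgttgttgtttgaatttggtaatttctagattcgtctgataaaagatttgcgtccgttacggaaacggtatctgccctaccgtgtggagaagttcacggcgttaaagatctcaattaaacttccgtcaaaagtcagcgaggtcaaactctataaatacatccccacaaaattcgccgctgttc
AT5G11330: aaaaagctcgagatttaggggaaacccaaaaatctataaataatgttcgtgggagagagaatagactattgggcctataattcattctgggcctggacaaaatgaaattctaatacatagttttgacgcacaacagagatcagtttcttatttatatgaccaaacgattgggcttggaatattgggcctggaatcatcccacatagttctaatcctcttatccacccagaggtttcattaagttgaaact
AT2G43535: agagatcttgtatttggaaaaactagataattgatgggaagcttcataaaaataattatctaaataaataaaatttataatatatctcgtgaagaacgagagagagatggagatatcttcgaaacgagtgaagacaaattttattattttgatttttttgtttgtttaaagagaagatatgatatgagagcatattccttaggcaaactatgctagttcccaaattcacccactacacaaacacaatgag
AT1G75945: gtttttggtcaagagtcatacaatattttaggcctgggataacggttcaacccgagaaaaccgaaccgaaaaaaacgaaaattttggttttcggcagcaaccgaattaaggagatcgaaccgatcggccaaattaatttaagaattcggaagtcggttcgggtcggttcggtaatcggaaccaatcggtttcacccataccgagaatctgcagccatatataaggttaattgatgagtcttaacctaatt
AT5G24240 held 1 match, and the other sequences held none. Over all tested nuclear genes with such a window, 12013 of 21184 (56.7%) held a CANNTG, and among the 38 genes called lower 20 did (52.6%). The G-box CACGTG, a form of the E-box and so counted in it too, was in 7.4% of all windows and in 1 of the 38.

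AT5G24240 encodes a phosphatidylinositol 4-kinase gamma-like protein. It stood at 6.41, 5.11 and 5.06 FPKM in Col0_HL and at 0.370, 0.496 and 0.075 FPKM in bHLH35_HL, where every library was far under the lowest of Col0. Its difference was -2.32 (SE 0.21, adjusted p 7.78e-10), and it was called in all 7 other treatments, with differences of -1.99 in S to -2.58 in S+HL. AT5G11330 encodes an oxidoreductase of the FAD/NAD(P)-binding family. It stood at 35.8, 39.5 and 34.9 FPKM in Col0_HL and at 13.2, 15.8 and 13.3 FPKM in the mutant, with the groups well apart. The difference was -1.32 (SE 0.10, adjusted p 1.68e-11), and the other treatments ranged from -0.81 in HL+HS to -1.63 in S.

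AT1G75945, annotated as an uncharacterized protein, was the called nuclear gene with the largest rise. It stood at 1.49, 0.854 and 0 FPKM in Col0_HL and at 20.8, 17.56 and 16.6 FPKM in bHLH35_HL, a difference of 3.53 (SE 0.45, adjusted p 2.82e-06). In the other 7 treatments its difference lay between 3.49 and 4.43, called in each. AT2G43535, a knottin (small cysteine-rich protein) gene, stood at 73.1, 53.2 and 65.6 FPKM in Col0_HL and at 31.4, 33.1 and 31.02 FPKM in the mutant, a difference of -0.97 (SE 0.21, adjusted p 0.016). It was called in 4 of the other 7 treatments.

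A pair of major latex protein-like (MLP) genes was also called lower. MLP34 (AT1G70850) stood at 408.3, 331.0 and 372.0 FPKM in Col0_HL and at 86.7, 116.8 and 112.5 FPKM in bHLH35_HL, a difference of -1.81 (SE 0.23, adjusted p 2.46e-06). MLP328 (AT2G01520) stood at 249.6, 192.7 and 200.6 FPKM against 51.7, 58.9 and 59.7 FPKM, a difference of -1.89 (SE 0.28, adjusted p 5.20e-05). For both MLP genes the highest mutant library lay well under the lowest Col0 library.

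CYP81F4 (AT4G37410), a cytochrome P450 that modifies indole glucosinolates, stood at 559.4, 272.8 and 290.4 FPKM in Col0_HL and at 116.2, 130.5 and 119.6 FPKM in the mutant, a difference of -1.53 (SE 0.34, adjusted p 0.021). Its Col0 libraries differed widely among themselves while the mutant ones lay close together. NSP1 (AT3G16400), a nitrile specifier protein that steers glucosinolate breakdown towards nitriles, stood at 360.9, 315.2 and 308.5 FPKM against 170.4, 182.6 and 162.2 FPKM, a difference of -0.93 (SE 0.18, adjusted p 0.0033). The TPS-CIN copies AT3G25830 and AT3G25820, monoterpene synthase genes, had differences of -1.45 and -1.40 (adjusted p 0.0072 and 0.0042). They are near-identical copies that share reads, so the split between them is uncertain.

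AT1G72140, a transporter gene of the major facilitator superfamily, stood at 12.97, 9.64 and 10.03 FPKM in Col0_HL and at 1.02, 2.89 and 1.94 FPKM in bHLH35_HL, a difference of -2.05 (SE 0.27, adjusted p 5.09e-06). AT4G11320, a papain family cysteine protease gene, had a difference of -1.22 (adjusted p 0.0016), and AT1G68850, a peroxidase gene, one of -1.15 (adjusted p 0.026). AT4G13860, an RNA-binding protein gene, differed by -1.73, AT4G24340, a phosphorylase family gene, by -1.68, AT3G46700, a glycosyltransferase gene, by -1.23 and ABCG30 (AT4G15230), an ABC transporter gene, by -1.13. Each of these 4 was called with non-overlapping libraries.

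**Figure D2:**
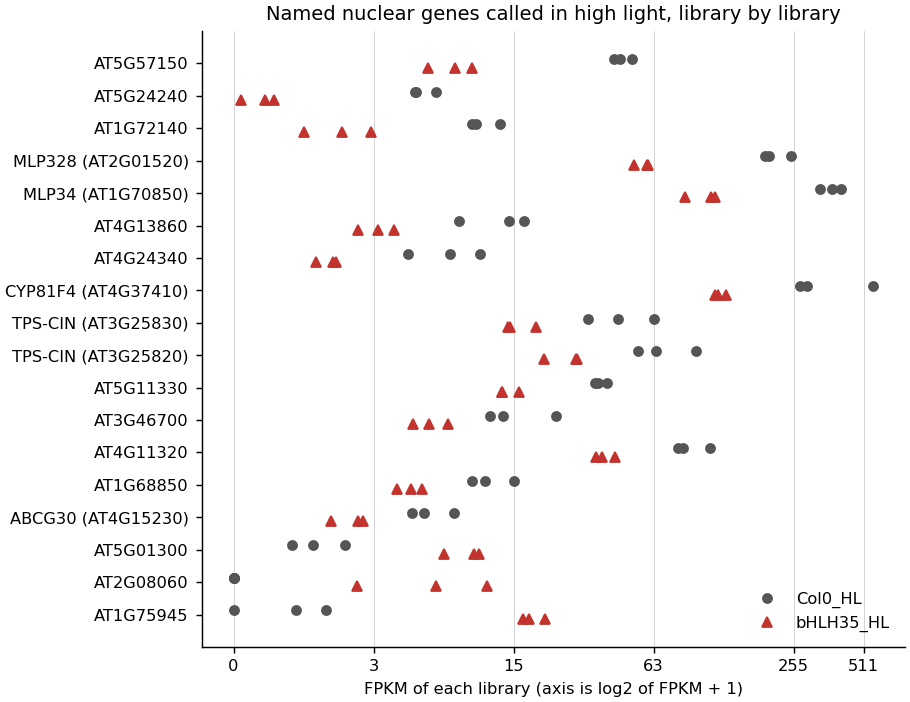
Points give the FPKM of each library, on an axis of log2(FPKM + 1), for the 18 nuclear genes named by the size of their called difference, with circles for Col0_HL and triangles for bHLH35_HL. The groups are separate for all 18, 15 lower in the mutant and 3 higher.

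The following genes called lower were chosen after their values were seen and stand for no group. RALF1 (AT1G02900), a peptide signal that limits root cell elongation, stood at 65.7, 49.2 and 69.4 FPKM in Col0_HL and at 19.96, 37.5 and 33.4 FPKM in the mutant, a difference of -1.03 (adjusted p 0.016). EXT3 (AT1G21310), a structural extensin of the cell wall, differed by -0.92 (adjusted p 0.034). MYB92 (AT5G10280), a transcription factor of suberin formation, differed by -0.89 (adjusted p 0.044), and MIZ1 (AT2G41660), required for root hydrotropism, by -0.84 (adjusted p 0.031). JR1 (AT3G16470), a jasmonate-responsive lectin gene, differed by -1.04 (adjusted p 0.0021), and CYP94B1 (AT5G63450), which oxidizes the active jasmonate conjugate, by -0.91 (adjusted p 0.018). SERAT1;1 (AT5G56760), a serine acetyltransferase of cysteine synthesis, had a small difference of -0.65 with a small error (SE 0.087, adjusted p 5.09e-06).

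Root markers were lower in the mutant group as well, in values that stood beside these calls. All 6 tested of the 7 root markers were lower, with a median of -0.75, and none was called by limma (4 had an unadjusted p under 0.05). The summed marker level of replicate 2 of Col0_HL, 80.2 FPKM, lay below that of mutant replicates 2 and 3, 99.6 and 80.9 FPKM. In HL the 38 genes called lower had a median of -1.14. Mean root marker sums were 71.9 FPKM in the mutant and 123.5 FPKM in Col0. Control had sums of 27.15 and 52.04 FPKM (median -0.75), HS 33.53 and 83.92 (-0.89) and HL+HS 60.33 and 136.5 (-0.88). S+HL had 207.2 and 229.4 (-0.57), S+HS 203.6 and 245.6 (-0.37) and S+HL+HS 210.7 and 228 (-0.63). In S the sums were 234.3 FPKM in the mutant and 224.1 FPKM in Col0. There 33 of the 38 genes were lower in the mutant, with a median of -0.34, where 42.6% of nuclear genes were lower. The part of root content in the calls was not tested further, and in seedling RNA fewer cells of a type and less RNA per cell cannot be told apart.

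Of the nuclear genes called higher, AT5G01300, which encodes a phosphatidylethanolamine-binding family protein, stood at 0.782, 2.002 and 1.19 FPKM in Col0_HL and at 7.04, 10.3 and 9.83 FPKM in bHLH35_HL. Its difference was 2.13 (SE 0.48, adjusted p 0.024), and it was higher in the mutant in all 7 other treatments, without a call in any. AT2G08060, a long non-coding RNA gene, was at or below 0.002 FPKM in every Col0_HL library, under what 1 fragment is worth, and stood at 6.42, 2.38 and 11.3 FPKM in the mutant (adjusted p 0.032). In Control its difference was -1.03 and was not called.

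The calls were compared with the other treatments. The libraries of these did not enter the HL differences, but they entered the filter and the shared variance behind the calls. Calls in several treatments are therefore not independent. Of the 38 genes called lower in HL, 36 were also lower in Control, where 51.8% of nuclear genes tested were lower, and 13 were called there. Control had 44 calls in all (0.206%), 39 of them nuclear and lower (0.184%), so the 13 were 34.2% of the HL set and 33.3% of the Control set. In HS 35 of the 38 were lower, against 54.4% of nuclear genes tested, and 11 were called, with 16 calls in all (0.0749%). In HL+HS 36 were lower, against 64.8%, and 11 were called, with 29 in all (0.136%). In S+HL 35 were lower, against 49.6%, and 7 were called, with 41 in all (0.192%). These counts lay above the nuclear share in each treatment. In S 33 were lower, against 42.6%, and 4 were called, of 5 in all (0.0234%). In S+HS 35 were lower, against 41.1%, and 3 were called, of 4 in all (0.0187%). In S+HL+HS 33 were lower, against 62.7%, and 3 were called, of 5 in all (0.0234%).

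Of the 41 nuclear genes, 4 were called in all 7 other treatments and 21 in none of them. AT4G20030, an RNA-binding protein gene picked after its values were seen, stood at 17.9, 16.3 and 18.9 FPKM in Col0_HL and at 8.36, 12.1 and 6.47 FPKM in the mutant, a difference of -0.95 (adjusted p 0.041). Its difference in Control was 0.18. Whether the HL and Control differences themselves differ was tested as the difference of the HL responses, in which limma called no nuclear gene, while 735 of 21185 had an unadjusted p under 0.05. A call in HL alone is therefore not shown to be particular to high light.

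**Figure D3:**
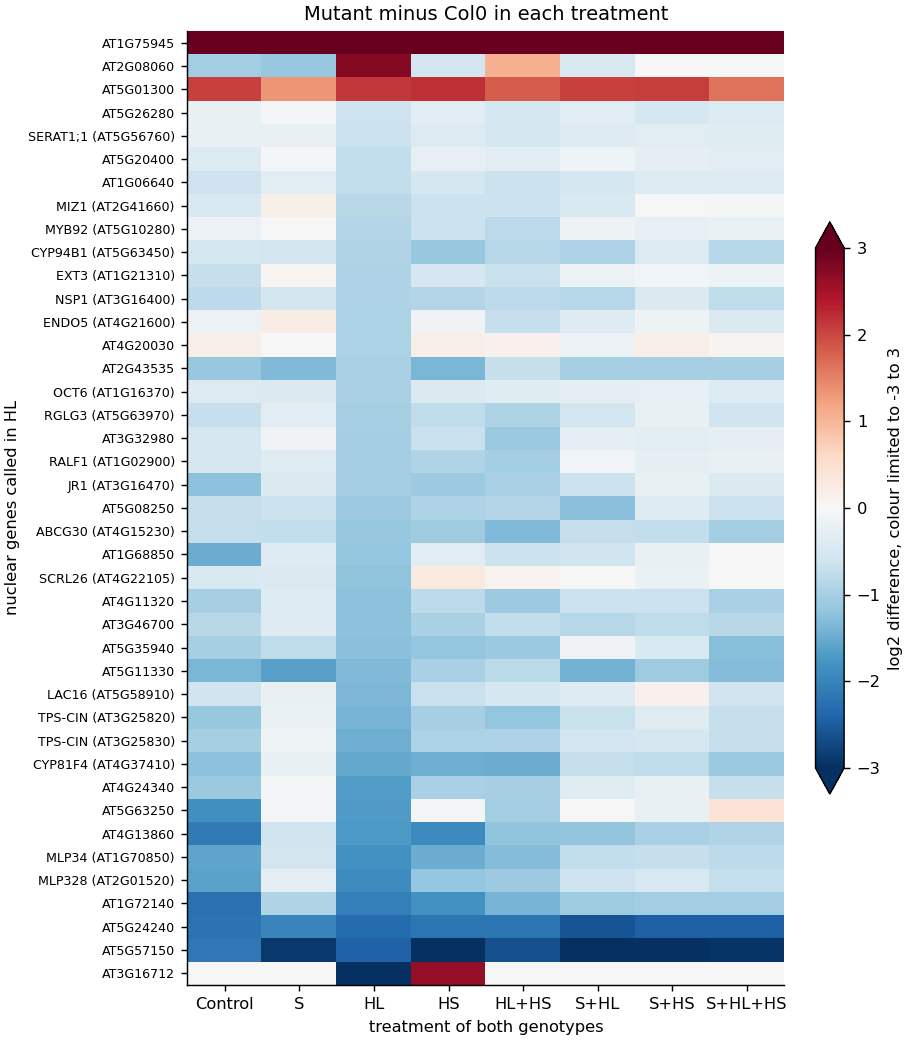
Rows are the 41 nuclear genes called in HL and columns the 8 treatments, with colour for the log2 difference of the mutant minus Col0, limited to -3 to 3. Blue, lower in the mutant, runs through most rows in most columns and is paler in the columns with salt, while AT1G75945 and AT5G01300 are red throughout.

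None of the listed high light genes passed the test. Of 17 high light and photoprotection genes, limma called 0 and 1 had an unadjusted p under 0.05, with 11 higher, 6 lower and a median of 0.02. ELIP1 (AT3G22840), an early light-induced chlorophyll-binding protein gene, stood at 179.1, 124.0 and 187.9 FPKM in Col0_HL and at 93.2, 116.5 and 110.4 FPKM in the mutant, a difference of -0.60 that was not called (adjusted p 0.52). PSBS (AT1G44575), needed for rapid heat dissipation of excess light, had a difference of 0.02 (adjusted p 0.99). Of 16 heat response genes, 11 were higher with a median of 0.30, and neither a call nor an unadjusted p under 0.05 was found. Their mean log2 level was 4.95, 6.22 and 8.07 in the Col0 libraries 1 to 3 and 4.46, 7.28 and 8.26 in those of the mutant. Libraries of 1 group thus differed by more than the groups did, and the level rose with the replicate number in both groups.

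Flavonoid and anthocyanin genes were lower in 15 of 16 cases, with a median of -0.39, where 64.4% of nuclear genes were lower. None was called by limma and 5 had an unadjusted p under 0.05. The mean log2 level of the list was 4.647, 3.768 and 3.732 in the Col0_HL libraries 1 to 3. It was 3.925, 3.596 and 3.273 in those of the mutant, so the groups overlapped, with replicate 1 of Col0_HL the highest. CHS (AT5G13930), chalcone synthase at the entry of the pathway, stood at 817.9, 491.3 and 448.8 FPKM in Col0_HL and at 333.4, 387.9 and 315.1 FPKM in the mutant, a difference of -0.71 (adjusted p 0.34) with no overlap. MYB12 (AT2G47460), an activator of flavonol genes, stood at 21.4, 19.0 and 17.41 FPKM against 7.98, 12.01 and 9.10 FPKM, a difference of -0.93 (adjusted p 0.13). CHS and MYB12 were among the 4 of 16 whose libraries did not overlap. For comparison, 8.67% of nuclear genes were lower in the mutant without overlap.

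Nuclear photosynthesis genes leaned the other way. Of 30 genes, 27 were higher in the mutant, with a median of 0.19, and none was called, while 12 had an unadjusted p under 0.05. LHCB1.4 (AT2G34430), a light-harvesting antenna protein gene, stood at 806.6, 982.8 and 1036.7 FPKM in Col0_HL and at 1852.8, 1296.2 and 1375.4 FPKM in the mutant, a difference of 0.67 (adjusted p 0.20). Replicate 1 of the mutant was the highest library for it. Libraries of 9 of the 30 did not overlap, counting either direction, against 10.9% of all genes tested (2.07% of nuclear genes, higher only). Of 22 nuclear genes of the plastid transcription machinery, 17 were higher (13 to 20 across the scalings tried) with a median of 0.05. Among these 22, limma called 0 and 1 had an unadjusted p under 0.05. SIG4 (AT5G13730), a sigma factor that directs the plastid polymerase, had their largest difference, 0.45 (adjusted p 0.28). Of 11 nuclear genes of plastid RNA processing and decay, 9 were higher with a median of 0.05, and again none was called (1 with an unadjusted p under 0.05).

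**Figure D4:**
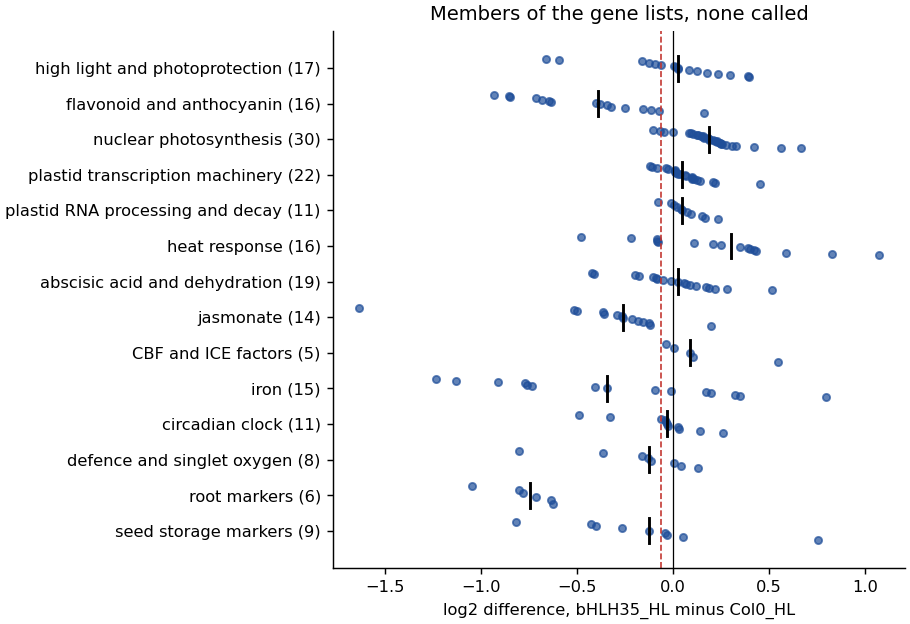
Points are the log2 differences of bHLH35_HL minus Col0_HL for the members of each list, with the number tested in brackets, a black bar at each list's median and a dashed line at the median of all genes, -0.066. Root markers, flavonoid, iron and jasmonate genes lie mostly left of 0 and nuclear photosynthesis genes right of it, and no member shown was called.

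Plastid-encoded transcripts took 0.102%, 0.0731% and 0.0809% of the FPKM sum in the Col0_HL libraries and 1.07%, 0.792% and 1.19% in those of bHLH35_HL. Every mutant library was above every Col0 library, a ratio of the means of 11.97. A few identifiers carried much of this. ATCG00960 and ATCG01170 each stood at 2277.05 FPKM in mutant replicate 3 and at 0 in every other HL library. The plastid sum of that library was 9340 FPKM. In mutant replicate 1, of a plastid sum of 8540 FPKM, ATCG00950 and ATCG01180 stood at 1424.8 and 1429.2 FPKM. ATCG00920 and ATCG01210 stood there at 1104.1 and 1111.5 FPKM. ATCG01180 belonged to a list of ribosomal RNA genes, of whose 9 tested members 4 were called higher. The share is therefore not one of protein-coding transcripts alone. How much of it was ribosomal RNA was not tested, and the share without these identifiers was not computed. For the share of all plastid identifiers, the exact two-sided permutation test gave p = 0.10, the smallest that 3 against 3 libraries allow. Nuclear ribosomal RNA genes summed to 2253, 2138 and 2094 FPKM in Col0_HL and to 2301, 2518 and 3569 FPKM in the mutant, and their part in the plastid difference was not tested.

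Individual plastid genes rose by very different amounts. Of the 80 tested, 76 were higher and 4 lower, with a median of 2.23, and 46 of the 48 called did not overlap. Genes could enter the 80 through the mutant HL libraries alone, so these counts and the median lean towards a rise by selection. ATCG00020 stood at 44.0, 61.4 and 65.6 FPKM in Col0_HL and at 607.4, 530.5 and 439.3 FPKM in bHLH35_HL, a difference of 3.19 (SE 0.40, adjusted p 1.49e-06). ATCG00270 rose further, from 4.17, 6.12 and 8.83 FPKM to 232.2, 210.7 and 189.7 FPKM, a difference of 4.89 (SE 0.51, adjusted p 2.53e-08). ATCG00190 rose least among the called, from 4.42, 4.43 and 3.41 FPKM to 14.1, 9.44 and 7.88 FPKM, a difference of 1.15 (SE 0.17, adjusted p 6.02e-05). Over the 48 tested plastid genes with a Col0_HL mean of at least 1 FPKM, the ratio of means had a median of 4.89, with 11 genes over 10-fold and 24 under 5-fold. A further 13 were listed at 0 in all Col0_HL libraries. The called genes held 5 pairs of identifiers with nearly the same values (within 10% in every HL library), so the 48 are not 48 separate measurements.

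The plastid rise was not found in every treatment with the mutant. Of the 48 called plastid genes, 24 were also called in S+HL (50% of this set and 96% of the 25 plastid calls there), 3 in Control and 0 in each of the other 5 treatments. The median over all plastid genes tested was 2.23 in HL, 1.302 in S+HL, 0.61 in Control and 0.00 in HL+HS, where light and heat were combined. Since genes could enter this set through the mutant HL libraries alone, the HL median may be raised against the others. Counts of plastid genes with an unadjusted p under 0.05 were 63 in HL, 49 in S+HL, 33 in Control, 3 in HS, 3 in S+HS, 2 in S, 2 in HL+HS and 1 under all 3 stresses.

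**Figure D5:**
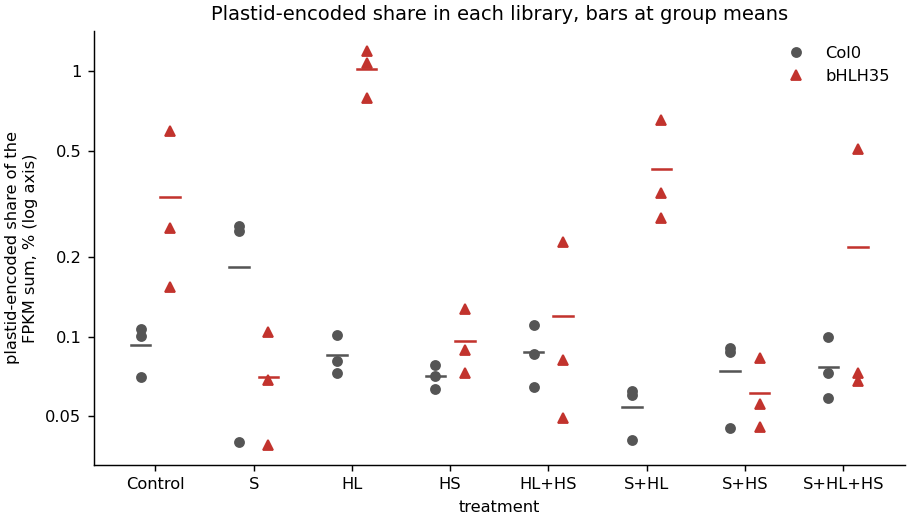
The plastid-encoded share of the FPKM sum, in % on a log axis, is shown for each of the 48 libraries by treatment, with circles for Col0, triangles for the mutant and bars at group means. The mutant HL libraries, 0.792% to 1.19%, are the highest of the series, and Control and S+HL are the other treatments in which the groups do not overlap.

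The HL response was then compared between the genotypes, as HL minus Control in the mutant less the same in Col0. Of the genes tested, 5 were called (0.0234%), all plastid-encoded and all with the larger response in the mutant. The count was 0 when 0.1 replaced the pseudocount of 1, 0 when the model held just these 4 groups, and 1 among genes with a mean of at least 5 FPKM. ATCG00680 stood at 3.62, 3.86 and 3.31 FPKM in Col0_Control, at 6.02, 12.98 and 11.8 FPKM in bHLH35_Control, at 2.304, 3.27 and 4.16 FPKM in Col0_HL and at 59.9, 47.7 and 47.6 FPKM in bHLH35_HL. The HL and Control ranges overlap in Col0, while in the mutant every HL library lies far above every Control library. bHLH35 itself had a response difference of -0.29 and was not called, with a response of 0.94 in Col0 (adjusted p 2.51e-04) and of 0.65 in the mutant (adjusted p 0.0094).

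The nuclear calls depended strongly on single libraries. Without replicate 1 of Col0_HL 14 nuclear genes were called and without replicate 1 of bHLH35_HL 21, while 11 of the 41 kept their call without each of the 6 libraries in turn. These 11 were bHLH35, AT5G24240, AT5G11330, AT1G72140, MLP34, MLP328, JR1, AT4G11320, AT4G24340, SERAT1;1 and, higher, AT1G75945. A fit of the 6 HL libraries alone called 12 nuclear genes, 10 of them among the 41. Of the 48 plastid genes, 39 kept their call without each library in turn.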

How the data were processed

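Total RNA from seedlings was sequenced as paired-end reads in 48 libraries (16 groups of 3, grouped and numbered by their titles). Per the labels' design text, read quality was controlled with Trim Galore 0.6.4 and FastQC 0.11.9, and the submitters' processing notes name HISAT2 2.2.1 and TAIR10. The values the authors deposited are FPKM, in 1 table per genotype; the FPKM tool, strand use and whether both tables were normalized together are not given in the sources used here. The tables list 32824 identifiers, of which 32527 matched the RefSeq gene table of TAIR10.1, used for names and positions. Plastid and mitochondrial identifiers had no match, so they are given without names.

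After a filter that kept genes reaching 1 FPKM in 3 or more of the 48 libraries, expression was tested with limma 3.58.1 (R 4.3.3) on log2(FPKM + 1), with a shared, trended variance over 16 groups and no further term. The threshold was a two-sided Benjamini-Hochberg adjusted p of 0.05. Depth was estimated from the steps of 1 fragment in low values of 12877 genes with 1 transcript of at least 800 bases. Between 93.4% and 96.8% of low values in the HL libraries came out whole within 0.1. Whole multiples of a depth match the steps equally well, so the lowest matching depth was taken, and floors cover counting error only. The fit was tested on simulated data.

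The genes named are AT5G57150, AT4G29930, list members, and called genes without overlap and with a mean of at least 5 FPKM in the higher group: the 15 nuclear genes with the largest difference in each direction and the 12 such plastid genes, plus genes called in the response difference. Others were chosen after their values were seen, among them ATCG00020, ATCG00190, AT2G43535 and AT4G20030. Members and lists were chosen with earlier results of these data known. Alternatives were another pseudocount, filters, scalings, no trend, a replicate block, fits of fewer groups and leaving out each library.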

Additional observations from a re-analysis of the deposited data

Results flagged for a closer look

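The difference between the genotypes in the HL response was tested itself, as a contrast of 4 groups in limma, and passed the threshold for 5 plastid-encoded genes. The count was 0 when 0.1 replaced the pseudocount of 1, 0 when the model held just these groups, and 1 among genes with a mean of at least 5 FPKM. The log2 difference of the responses was 2.42 for ATCG00680, 2.23 for ATCG01000, 1.69 for ATCG01130, 1.48 for ATCG01280 and 1.47 for ATCG00860. ATCG00860 and ATCG01280 had values within 1.45% of each other in the HL libraries (as a share of the larger value, or of 0.5 FPKM where that is more) and are not counted as independent. ATCG00860, ATCG01280, ATCG01130 and ATCG01000 had no Col0_HL library above 0.361 FPKM, while their mutant HL libraries ran from 2.71 to 13.99 FPKM. The contrast contains the mutant Control, whose plastid share varied from 0.154% to 0.594% between its 3 libraries.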

How the results depend on the processing

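None of the 46 called genes followed singly reversed, and 22 of them kept call and direction in every alternative in which they were tested. Some alternatives filtered genes out, and these were not counted as lost there. With a mean of at least 5 FPKM, 29 of the 46 kept their call, 3 lost it and the rest were not tested. The call of bHLH35 held in every alternative, at -2.58 to -2.26 without single libraries, and the difference in plastid share stayed between 0.848 and 1.05 percentage points. With a mean of at least 5 FPKM, 43 genes were called in HL (27 nuclear, 16 plastid), 1 in the response difference. In fits of the contrasted groups 46 were called in HL (12 nuclear), 0 in the response difference and 7 in Control, and in a fit of the 12 HL and Control libraries, added after seeing the data, 60 in HL. The response difference had 0 calls with a pseudocount of 0.1, 8 without a filter and 9 under median-of-ratios scaling. Control had 104 calls with a pseudocount of 0.1, 76 under median-of-ratios scaling and 29 without a trend. Median-of-ratios scaling moved the median of all genes from -0.066 to 0.010 and turned the clock list from 4 of 11 higher (median -0.031) to 9 of 11 higher (median 0.060). It also moved abscisic acid genes from 10 to 14 of 19 higher and heat response genes from 11 to 14 of 16. Plastid transcription machinery genes ran from 13 of 22 higher at a common FPKM sum to 20 of 22 under median-of-ratios scaling. Leaving out 1 library gave 54 (without replicate 1 of Col0_HL) to 101 HL calls, 14 to 55 nuclear and 40 to 46 plastid ones. It gave 3 (without replicate 1 of Col0_HL) to 13 (without replicate 2 of bHLH35_Control) calls in the response difference. In Control it gave 16 (without replicate 1 of Col0_Control) to 153 (without replicate 2 of Col0_Control), with 17 and 25 without replicates 3 and 1 of bHLH35_Control. Causes were not tested.

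Same-numbered Col0_HL and bHLH35_HL libraries correlated in their deviations at 0.367, 0.020 and 0.321. The mutant replicates that matched Col0 replicates 1, 2 and 3 best were 1, 3 and 3. The labels do not say that a number marks a shared batch, so the main fit did not take the numbers as pairs. A replicate effect shared by the genotypes may still be present. The mean log2 level of the heat response genes did rise with the replicate number in both HL groups. It went from 4.95 to 8.07 in Col0_HL and from 4.46 to 8.26 in bHLH35_HL, and the cause was not tested. With a replicate block 90 genes were called in HL, 43 nuclear and 47 plastid, 5 in the response difference and 53 in Control. The plastid share without ribosomal and transfer RNA genes was not run, because plastid identifiers had no match in the RefSeq gene table. A list of ribosomal RNA genes did hold plastid identifiers, but the share was not computed without these either. Of the 9 genes tested on that list 4 were called higher, with a largest difference of 3.71, that of ATCG01180. Depth limits low genes, and 3 libraries per group limit every comparison.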

Other observations

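Iron genes varied in both directions. Of 15, 10 were lower and 5 higher in mutant HL, with a median of -0.35, limma called 0, and 5 had an unadjusted p under 0.05. FRO2 (AT1G01580), the root ferric chelate reductase, stood at 29.4, 8.15 and 9.54 FPKM in Col0_HL and at 5.07, 7.13 and 3.54 FPKM in the mutant, a difference of -1.24 (adjusted p 0.29). FIT (AT2G28160), the transcription factor of root iron uptake, differed by -0.92 (adjusted p 0.24). FRO6 (AT5G49730), a shoot member of the same reductase family, stood at 18.195, 44.9 and 35.7 FPKM against 58.3, 53.4 and 51.5 FPKM, a difference of 0.80 (adjusted p 0.21). The libraries of 9 of the 15 did not overlap, against 10.9% of all genes tested.

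Of 14 jasmonate genes 13 were lower with a median of -0.26, limma called 0, and 1 had an unadjusted p under 0.05. PDF1.2A (AT5G44420), a defensin gene, stood at 18.3, 11.8 and 17.83 FPKM in Col0_HL and at 1.21, 7.33 and 7.47 FPKM in the mutant, a difference of -1.64 (adjusted p 0.54). Abscisic acid genes were higher in 10 of 19 cases (median 0.02, but 14 of 19 and 0.11 under median-of-ratios scaling). Clock genes were higher in 4 of 11 (median -0.03, but 9 of 11 and 0.06 under that scaling). CBF and ICE factors were higher in 4 of 5 (median 0.09), defence genes in 3 of 8 (median -0.13) and seed storage markers in 2 of 9 (median -0.12). None of these lists had a called gene, and 1 clock gene had an unadjusted p under 0.05.

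AT3G16712 stood at 41.8, 0 and 32.03 FPKM in Col0_HL and was listed at 0 in all 3 mutant HL libraries and in every Control library. It was called (adjusted p 0.012) although its libraries overlap. Called nuclear genes were spread over the chromosomes, with 14 of 4887 tested on chromosome 5 (0.286%), 8 of 3235 on chromosome 4 (0.247%), 7 of 4140 on chromosome 3 (0.169%), 8 of 5662 on chromosome 1 (0.141%) and 4 of 3261 on chromosome 2 (0.123%).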
